A study of Mus musculus with 16 samples.

Results

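The effect of Akti1/2 on unstimulated T cells was measured in D10, a mouse Th2 cell line, by setting the 2 arrays of inhibitor-treated cells at 0 h against the 2 arrays of control cells at 0 h. These 4 arrays belong to a set of 16, in which the same treatments were also sampled in duplicate after 2, 6 and 12 h with anti-CD3/CD28. Of the 18138 genes on the arrays, 7395 were above the negative controls on 2 or more of the 16 arrays and were tested. Treated cells had been pre-incubated for 1 h with the inhibitor at 10 µM and had no anti-CD3/CD28, so the comparison shows the inhibitor alone. Control cells had no inhibitor, and the sources call them untreated in one place and solvent-treated in another, so an effect of a solvent cannot be told apart from that of Akti1/2. All cells grew in medium with serum and recombinant human IL-2. D10 is a fast-growing variant of 1 T cell clone, and the labels do not say whether the duplicates were separate cultures, so p-values measure only the spread between these arrays, which may be technical.

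Akt is a serine/threonine kinase that acts below PI3K, which T cells activate through the antigen receptor, CD28 and cytokine receptors such as that for IL-2. Among its substrates, the FOXO transcription factors are kept out of the nucleus when phosphorylated, and TSC2 restrains mTORC1 until Akt phosphorylates it. Akti1/2 binds Akt1 and Akt2 outside the ATP site and holds them in an inactive form. The integrated stress response is a separate pathway, in which phosphorylation of eIF2 favours translation of ATF4, a transcription factor that switches on genes for amino acid supply and, with CHOP, for cell death.

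The arrays at 0 h carried the profile of T helper cells. Of 13 T helper and Th2 marker genes, 11 were above background on all 4 arrays, among them Gata3, the Th2 lineage factor, at a log2 level of 12.21 to 12.24. Cd4 was dim and above background on 3 of the 4 arrays, and Ccr4 on 0. Of 9 markers of other T cells and natural killer cells, 0 were above background on any array. Of 17 markers of other immune cells, 14 were above background on no array at 0 h. The exceptions were Fcer1a at 11.67 to 11.84, the haemoglobin gene Hba-a1 at 10.57 to 10.67 and a dim Cd68 at 5.81 to 6.25, all above background on each of the 4 arrays. The summed intensity of the T helper list was 30649 to 38015 in control arrays and 29584 to 37915 in treated arrays, and that of the other immune list was 7012 to 7899 and 6281 to 7761. On each array at 0 h, 6407 to 6641 genes were above background, and the log2 levels of the replicate arrays correlated at 0.994 in control and 0.993 in treated cells.

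Before stimulation, few genes passed the test of Akti1/2 against control. At an adjusted p under 0.05 (limma, Benjamini-Hochberg over 7395 genes, two-sided), 3 genes rose (0.0406% of those tested) and 1 fell (0.0135%), which is 0.0541% in either direction. The genes that rose were Rgs1, which shuts off G protein signals from chemokine receptors, Chac1, which degrades glutathione, and Ddit3, which encodes the stress transcription factor CHOP. The gene that fell was Dusp2, a nuclear phosphatase of MAP kinases. An unadjusted p under 0.05 was reached by 206 genes with a higher level in treated cells (2.79%) and 177 with a lower one (2.39%), or 5.18% in all. With no effect in any gene, a share near 0.05 would pass this threshold, so reaching it does not set a gene apart. A difference beyond 1 on the log2 scale was measured in 8 genes, of which Rgs1, Chac1, Dusp1, Ddit3, Fos and Tnfaip3 were higher and Dusp2 and Tnf lower. The 95% interval of the difference lay within 0.5 of 0 on the log2 scale for 60.1% of the genes and within 1 for 97.4%. In simulated arrays, 19.4% of planted differences of 0.5 passed the test and 91% of those of 1. Far more genes were called there than here, which makes the adjusted threshold easier to pass. These shares may therefore be too high for the real arrays. Of the genes beyond 1 here, Dusp1, Fos, Tnfaip3 and Tnf did not pass. Small changes can be missed, and so can some beyond 1. As the arrays measure bulk RNA, a level that is lower in fewer cells and one that is lower in each cell cannot be told apart.

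**Figure D1:**
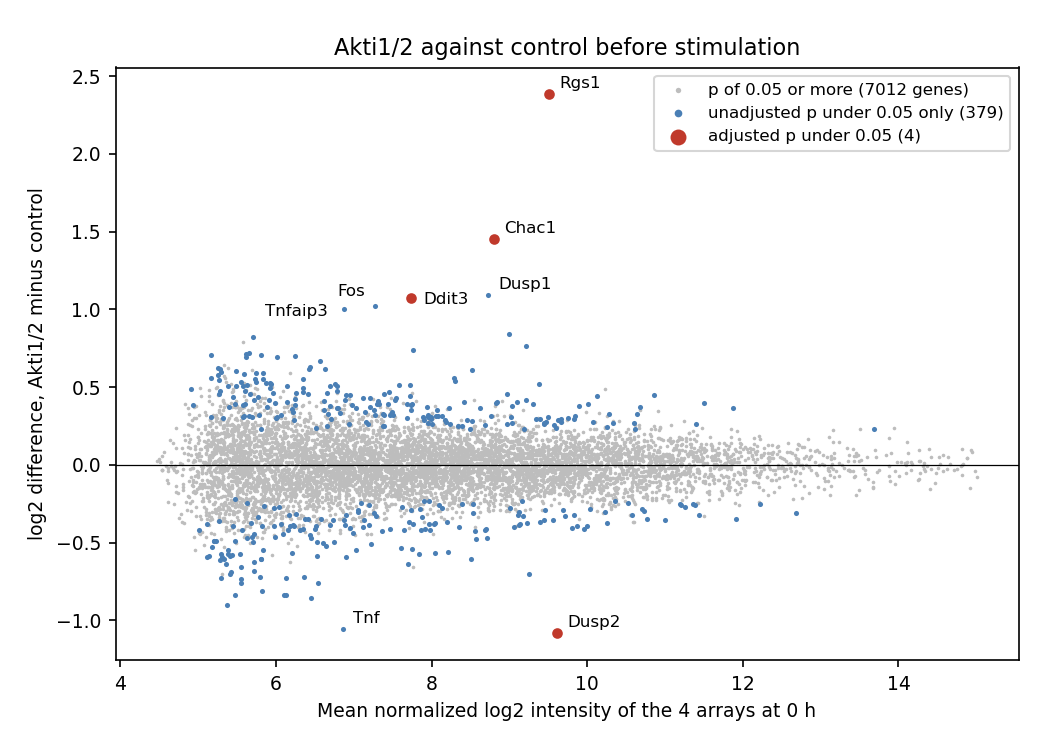
Difference between Akti1/2 and control cells at 0 h (log2, y axis) against the mean normalized log2 intensity of the 4 arrays (x axis), 1 point per gene tested. Red points are the 4 genes called at an adjusted p under 0.05, blue points have only an unadjusted p under 0.05, and the 8 genes beyond 1 in either direction are named.

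The promoters of 3 of the called genes and of Dusp1, the other MAP kinase phosphatase with a difference over 1, are shown so that the response elements they hold can be read beside the changes. They are RefSeq sequences of build GRCm38.p6, 250 bases upstream of the start site, written 5′ to 3′ along the gene. Capitals mark matches, on either strand, to the cyclic AMP response element (TGACGTCA), its short form (TGACG, which lies within the full element), the AP-1 site (TGANTCA) and the ATF4 composite element (TGATGNAAT). They lie at chr2:119350992-119351241 on the plus strand for Chac1, chr10:127290543-127290792 on the plus strand for Ddit3, chr2:127335909-127336158 on the plus strand for Dusp2 and chr17:26508473-26508722 on the minus strand for Dusp1.
Chac1: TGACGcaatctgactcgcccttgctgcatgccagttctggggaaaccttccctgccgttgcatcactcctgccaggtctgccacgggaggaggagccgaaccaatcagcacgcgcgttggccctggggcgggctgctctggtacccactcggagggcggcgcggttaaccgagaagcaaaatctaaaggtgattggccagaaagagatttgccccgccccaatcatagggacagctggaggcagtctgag
Ddit3: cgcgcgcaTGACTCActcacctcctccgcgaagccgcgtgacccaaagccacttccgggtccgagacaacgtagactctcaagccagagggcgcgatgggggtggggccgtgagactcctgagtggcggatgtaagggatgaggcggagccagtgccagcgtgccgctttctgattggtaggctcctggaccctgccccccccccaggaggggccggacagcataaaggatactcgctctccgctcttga
Dusp2: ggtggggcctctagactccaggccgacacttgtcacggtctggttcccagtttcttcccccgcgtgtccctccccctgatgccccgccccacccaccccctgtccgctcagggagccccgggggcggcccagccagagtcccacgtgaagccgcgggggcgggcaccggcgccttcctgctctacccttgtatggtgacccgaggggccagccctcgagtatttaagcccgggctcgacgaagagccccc
Dusp1: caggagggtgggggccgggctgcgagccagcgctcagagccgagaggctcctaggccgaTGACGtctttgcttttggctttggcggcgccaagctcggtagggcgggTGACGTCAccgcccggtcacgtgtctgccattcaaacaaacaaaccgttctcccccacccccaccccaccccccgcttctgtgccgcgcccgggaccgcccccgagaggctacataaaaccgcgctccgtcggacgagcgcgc
The short form in the Chac1 window begins 250 bases upstream of the start, and the AP-1 site of Ddit3 begins 242 bases upstream. Only exact matches are marked. Unmarked in the Chac1 window is a stretch, read on the other strand, that differs from the composite element in its last base only. The stretch that opens the Chac1 window also differs from the composite element in 1 base. The Dusp1 window holds the full element 143 bases upstream and a separate short form 191 bases upstream. The Dusp2 window holds none of these, but an E-box (CACGTG) 109 bases and an EGR site (GCGGGGGCG) 98 bases upstream, and the Dusp1 window has an E-box 126 bases upstream. Over 32851 mouse promoters of the same length, 17.8% hold the short form, 1.55% the full element, 6.75% the AP-1 site and 0.816% the composite element. The E-box is in 6.02% and the EGR site in 2.57%. The FOXO site GTAAACA, present in 3.17%, is in none of the 4 windows, nor are the NF-kB site (3.9%) and the CArG box (1.47%). CCAAT boxes, found in 33.8% of promoters, occur 3 times in the Chac1 window and 1 time in that of Ddit3. These matches describe the letters of the windows only.

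Rgs1 showed the largest difference of all genes tested. Before normalization, the control arrays read 519.9 and 407.0 for it and the treated arrays 2023 and 1430.8. After normalization its log2 levels were 8.35 and 8.29 without and 10.81 and 10.60 with Akti1/2. Both treated arrays lay above both control arrays by more than 2 log2 units. The difference was 2.38 ± 0.13 (SE, n = 2 arrays per group), which is 5.21-fold (adjusted p = 1.41e-06, limma). Rgs1 was called under all 16 alternative settings. Of the 7 RGS genes tested, Rgs16 (0.51, unadjusted p = 0.0447) and Rgs14 (0.50) were the next highest, each above background on 1 of 2 control arrays, and did not pass the test, and Rgs12 was at -0.31.

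Chac1 had log2 levels of 8.02 and 8.13 in control cells and 9.51 and 9.54 in treated cells. The groups did not overlap, and the replicates of each group differed by far less than the groups. A lack of overlap alone was found in 39.5% of all genes tested. The difference was 1.45 ± 0.18, or 2.73-fold (adjusted p = 0.00509, limma). Ddit3 stood at 7.19 and 7.20 in control cells and at 8.28 and 8.25 in treated cells, again with no overlap. It rose by 1.07 ± 0.10, or 2.10-fold (adjusted p = 0.000665). Dusp2 was at 10.16 and 10.15 in control cells and 8.94 and 9.21 in treated cells. Both treated arrays were lower, and it fell 2.12-fold, a difference of -1.08 ± 0.12 (adjusted p = 0.00191). The calls of these 3 genes depended on the arrays used. Chac1 was not called when any 1 of the 4 arrays was left out (adjusted p = 0.0604 to 0.0994), and Ddit3 and Dusp2 were not called when the 4 arrays at 0 h were fitted alone (adjusted p = 0.113 and 0.313).

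**Figure D2:**
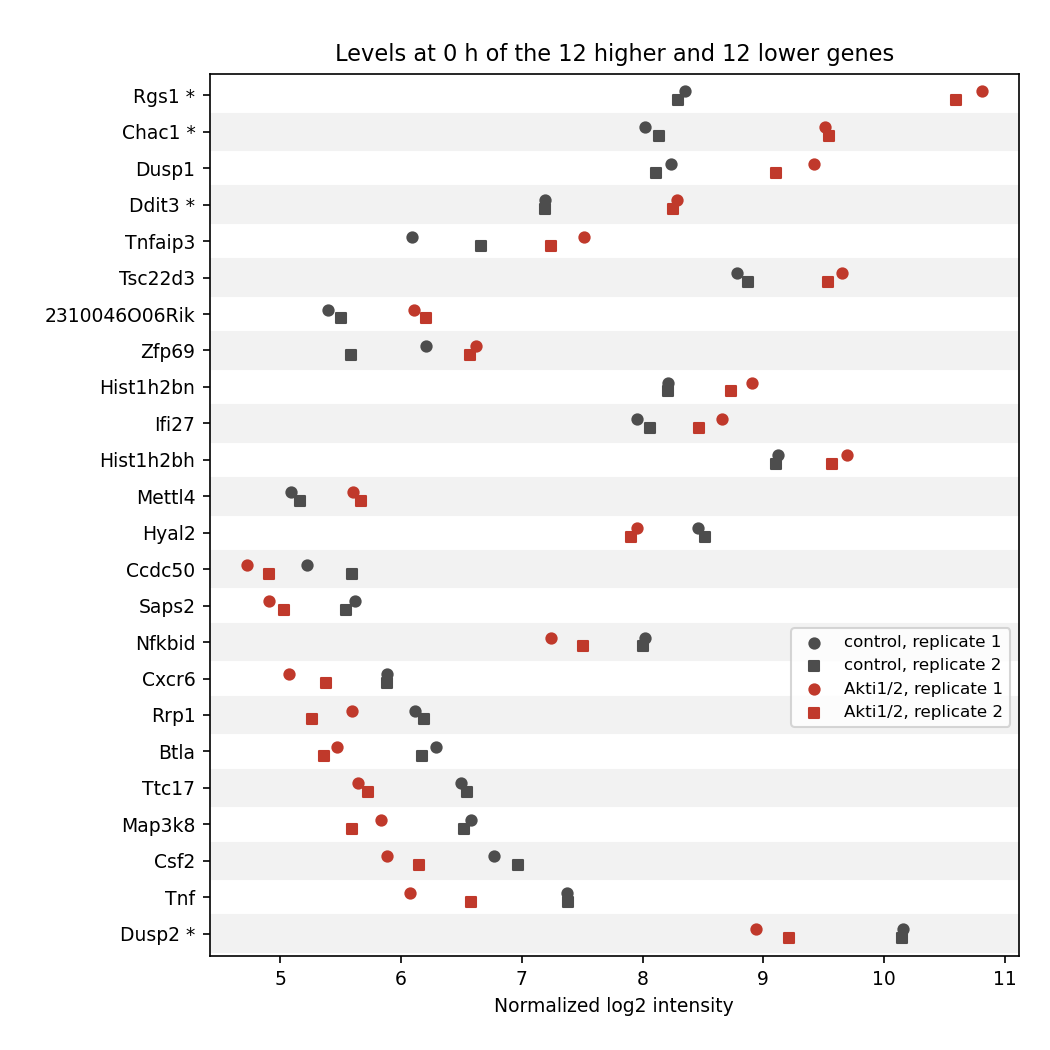
Normalized log2 intensity (x axis) of the 12 higher and 12 lower genes with the smallest p at 0 h and the same sign on both chips, ordered by difference, with 1 point per array. Grey is control, red is Akti1/2, circles are replicate 1 (chip 1), squares are replicate 2 (chip 2), and asterisks mark the 4 called genes; the 2 treated arrays of Rgs1 lie at 10.81 and 10.60 against 8.35 and 8.29 in control cells.

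Each chip held 1 array of each group, so the effect could be read within each chip. The Rgs1 difference was 2.46 on chip 1 and 2.31 on chip 2, that of Chac1 1.49 and 1.41, that of Ddit3 1.09 and 1.06 and that of Dusp2 -1.22 and -0.94. These genes were called from the same arrays, so like values on both chips follow from the choice and are given as a description. Over all 7395 genes the differences on the chips correlated weakly (Pearson's r 0.104, Spearman's rho 0.111, across genes, which are not independent replicates). The median absolute difference between treated and control cells was 0.147 on chip 1 and 0.133 on chip 2, beside 0.124 between the replicate control arrays and 0.128 between the replicate treated arrays.

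**Figure D3:**
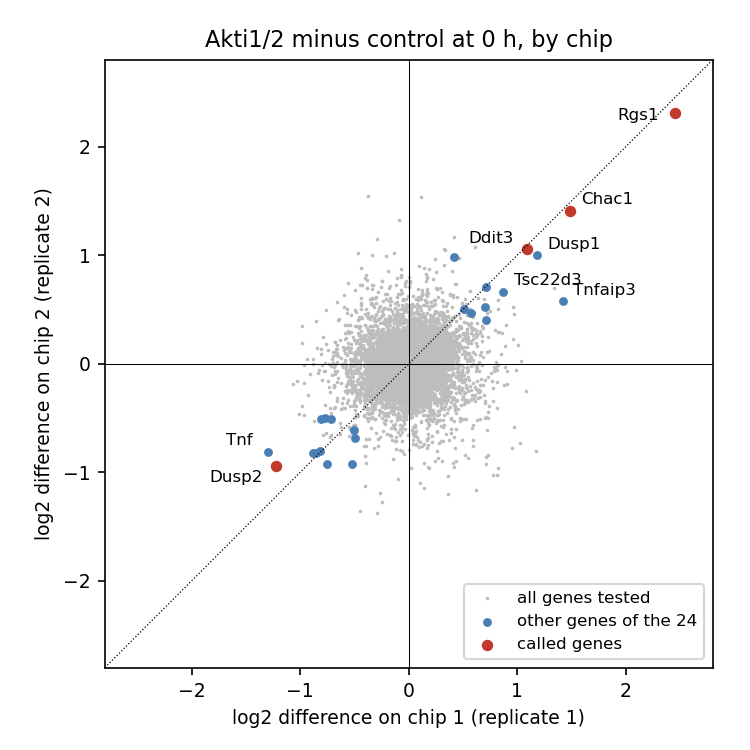
Akti1/2 minus control at 0 h (log2) on chip 1 (x axis) and chip 2 (y axis), 1 point per gene tested, with the diagonal dotted. The called genes, in red, were chosen on these values, with 2.46 and 2.31 for Rgs1, and the r over all genes was 0.104.

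The genes closest to the threshold were Dusp1 and Tsc22d3, both at an adjusted p of 0.0649 (limma). Dusp1, the phosphatase that acts on p38 and JNK, had levels of 8.24 and 8.11 in control cells and 9.42 and 9.11 in treated cells, a difference of 1.09 ± 0.18. Tsc22d3, which encodes the FOXO and glucocorticoid target GILZ, had levels of 8.78 and 8.87 against 9.65 and 9.54, a difference of 0.77 ± 0.13. In both genes the treated arrays lay above the control arrays, as in 19.4% of all genes tested. Dusp1 passed the test under 8 of the 16 alternative settings and Tsc22d3 under 6. The other 9 phosphatase and Sprouty-family genes tested lay between Dusp4 at -0.25 and Dusp19 at 0.28, and none passed.

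Other genes that rank high at 0 h did not pass the test, and their values are given as measured. Btla, an inhibitory receptor of T cells, was 6.29 and 6.17 in control cells and not above background in treated cells, a level at least 1.49-fold lower (adjusted p = 0.086). Tnfaip3, which encodes the NF-kB inhibitor A20, was at 6.09 and 6.66 against 7.51 and 7.24. Map3k8, a kinase upstream of ERK, was at 6.58 and 6.52 against 5.83 and 5.60, with 1 of 2 treated arrays above background. In both, treated and control arrays did not overlap, as in 39.5% of all genes tested, and both had an adjusted p of 0.333. Hyal2 differed by -0.56, Nfkbid, a nuclear IkB protein, by -0.64 and Ifi27, an interferon-inducible gene, by 0.56. Treated arrays were below background for Rrp1 (at least 1.41-fold lower) and Cxcr6 (at least 1.17-fold), and control arrays for 2310046O06Rik (at least 1.43-fold higher). The treated arrays were also below background for Saps2, and both groups were for Mettl4 and Ccdc50, so no fold is given for these genes. Ttc17 (-0.84) and Zfp69 (0.70, above background on 1 of 2 control arrays) complete the 24 genes together with Tnf, Csf2 and 2 histone genes described below.

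Of 36 integrated stress response genes tested, 2 rose (Ddit3 and Chac1) and 0 fell. An unadjusted p under 0.05 was reached by 7 with a higher level and 2 with a lower one, beside 2.79% and 2.39% of all genes tested. The median difference of the list was 0.037, beside -0.0021 over all genes tested. Atf4, the transcription factor of the pathway, was at 10.68 and 10.59 in control cells and 11.15 and 11.01 in treated cells. The difference was 0.45 ± 0.12 (adjusted p = 0.521, limma), and the groups did not overlap, as in 39.5% of all genes tested. Trib3, a pseudokinase that binds Akt and is an ATF4 and CHOP target, was at 6.52 and 6.49 against 6.82 and 6.94. Herpud1 (0.37), Cebpb (0.31) and Ppp1r15a, the phosphatase subunit for eIF2 listed as Myd116 (0.43), were the others with a higher level, and Aldh18a1 (-0.37) and Gpt2 (-0.29), enzymes of amino acid synthesis, those with a lower one. Asns, asparagine synthetase and a classical ATF4 target, was at 10.34, 10.38, 10.43 and 10.29, with a 95% interval of the difference from -0.23 to 0.22. Atf3 was not above background in either group. The 11 aminoacyl-tRNA synthetases tested ranged from -0.24 to 0.23 with a median of -0.07. In the unfolded protein response list of 18 genes, Herpud1 was the 1 with a higher level at an unadjusted p under 0.05, Dnajc3 (-0.26) and Wfs1 (at least 1.22-fold, not above background in treated cells) were lower, and 0 passed the adjusted test.

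The same genes were set beside their differences after stimulation, which come from other arrays. Akti1/2 against control called 28.4% of the genes at 2 h (13.6% higher, 14.9% lower), 37.5% at 6 h (18.8% higher, 18.7% lower) and 49% at 12 h (24.2% higher, 24.8% lower). Of the 36 stress response genes, 28, 33 and 34 were higher in treated cells at these times and 0 lower, with median differences of 0.87, 1.21 and 1.33. The synthetases followed with 5, 9 and 9 of 11. Ddit3 differed by 2.65, 3.18 and 3.65 and Chac1 by 3.78, 2.56 and 3.35. Trib3, at 0.38 before stimulation, differed by 3.45, 3.69 and 4.32. The time with the inhibitor grew with the time of stimulation, so the parts of exposure and of CD3/CD28 cannot be told apart.

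**Figure D4:**
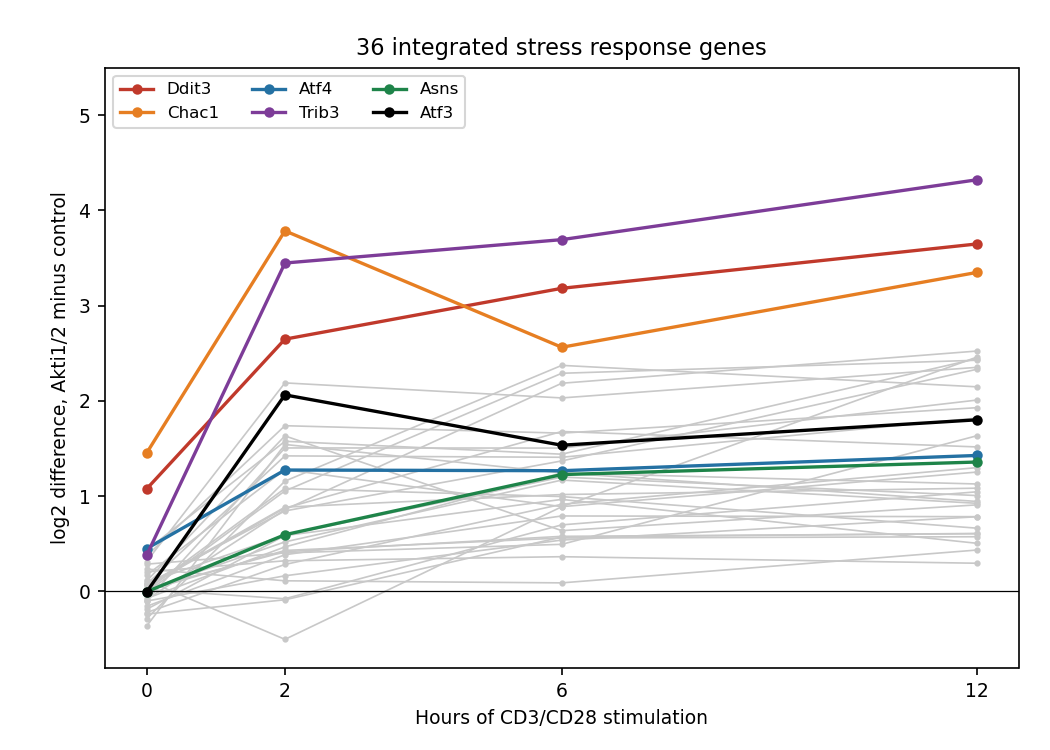
Akti1/2 minus control (log2, y axis) of the 36 integrated stress response genes at 0, 2, 6 and 12 h of CD3/CD28 stimulation (x axis), 1 line per gene, with 6 genes in colour. At 0 h the list has a median of 0.037, with Chac1 (1.45) and Ddit3 (1.07) apart from the rest, and its median is 0.87 at 2 h.

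The levels behind these differences were read in each treatment. In control cells Rgs1 had a mean log2 level of 8.32 at 0 h and of 8.00, 7.65 and 6.84 at 2, 6 and 12 h, and it fell by 6 and 12 h (adjusted p = 0.126, 0.00204 and 4.54e-06 against 0 h, limma). In treated cells it stood at 10.70, 10.84, 10.85 and 10.65, so at 12 h its control level was lower than at 0 h and its treated level within 0.1 of it. Ddit3 in control cells was between 7.19 and 7.46, while treated cells had 8.27, 9.90, 10.65 and 11.01. Dusp2 in control cells was at 10.16, 9.89, 10.54 and 10.35, and in treated cells at 9.08, 8.74, 8.92 and 8.68. Dusp1 rose in control cells at 2 h by 1.77 (adjusted p = 5.02e-05) from 8.17 to 9.94, and treated cells had 9.27, 10.87, 11.27 and 10.66. Tsc22d3 in control cells was at 8.83, 8.68, 7.92 and 8.19 and in treated cells at 9.59, 11.09, 11.35 and 11.58. The effect at 2 h minus that at 0 h passed the adjusted test in 8.41% of all genes (4.25% higher, 4.16% lower), that at 6 h in 19.5% (10.3% higher, 9.24% lower) and that at 12 h in 32.5% (16.3% higher, 16.2% lower). The 622 genes at 2 h became 186 to 303 when any 1 array at 0 h was left out (186 without control replicate 1, 303 without control replicate 2, 259 without Akti1/2 replicate 1 and 276 without Akti1/2 replicate 2) and 349 with scaling to the same 95th percentile, and the 1445 at 6 h became 916 without control replicate 1. Among the called genes, the effects of Chac1 and Ddit3 were larger than at 0 h at all 3 times, and those of Rgs1 and Dusp2 at 6 and 12 h, in a test that uses the 0 h arrays that chose them.

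**Figure D5:**
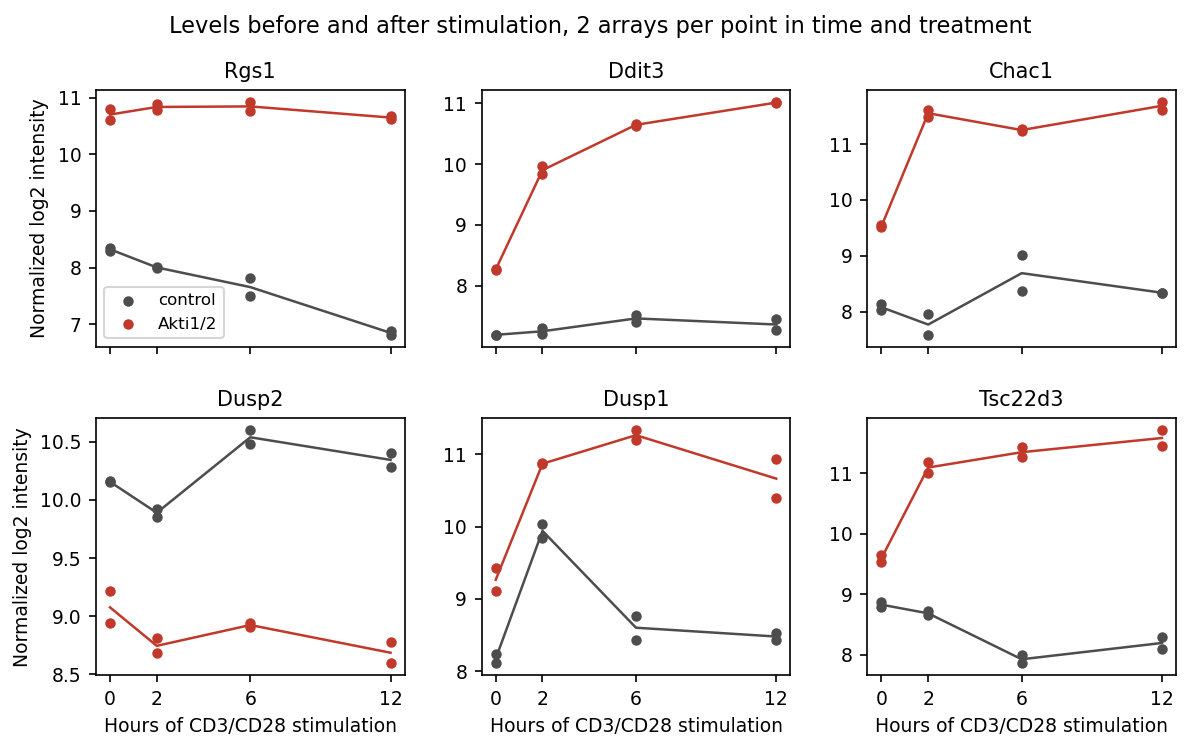
Normalized log2 intensity (y axis) of 6 genes by hours of CD3/CD28 stimulation (x axis) in control (grey) and Akti1/2-treated cells (red), with 1 point per array and lines through the means of 2 arrays. At 0 h the points of the treatments are apart in all 6 genes, and Rgs1 in control cells drops from 8.32 to 6.84 over 12 h.

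Of the 12 higher genes shown by array above, 12, 12 and 9 kept their sign at 2, 6 and 12 h, and 6, 7 and 7 were higher at an adjusted p under 0.05. Of the 12 lower genes, 8, 9 and 8 kept their sign, 7 were lower at each time and 1, 2 and 3 were higher. Among all genes tested, the sign at 0 h was kept by 55.3%, 53.5% and 51.6%. At an adjusted p under 0.05, 13.6%, 18.8% and 24.2% of them were higher and 14.9%, 18.7% and 24.8% lower. Hyal2 (-2.19, -1.81 and -1.84), Nfkbid (-1.99, -1.13 and -0.87) and Map3k8 (-0.88, -0.86 and -0.49) were lower at all 3 times. Cxcr6 was higher at 2 and 6 h and Ttc17 at 6 and 12 h, opposite to their sign at 0 h. No sizes are given for these, since no control array was above background for Cxcr6 at 2 and 6 h or for Ttc17 at 12 h, and 1 of 2 was for Ttc17 at 6 h.

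Among the Th2 effector genes, 17 of 19 had a level below that of control cells at 0 h, beside 3728 of all 7395 genes tested, and 0 passed the test. The median was -0.12, with -0.26 on chip 1 and -0.03 on chip 2. Tnf was at 7.38 and 7.39 in control cells and 6.08 and 6.58 in treated cells, a difference of -1.06 ± 0.24 (adjusted p = 0.42). Csf2, which encodes GM-CSF, was at 6.77 and 6.97 against 5.89 and 6.15, a difference of -0.85 ± 0.20 (adjusted p = 0.452). Areg, amphiregulin, was at 9.70 and 9.50 against 8.94 and 8.87, a difference of -0.70 ± 0.21 (adjusted p = 0.727). In all 3 genes the treated arrays were below the control arrays, as in 20.2% of all genes tested. All 3 were lower at an adjusted p under 0.05 at 2, 6 and 12 h (Tnf by -3.61, -3.23 and -2.46). Il4 went the other way, with 9.94 and 9.86 in control cells and 10.44 and 10.24 in treated cells, a difference of 0.44 ± 0.14 (adjusted p = 0.764). At 2, 6 and 12 h Il4 was higher in treated cells by 0.33, 0.49 and 0.99 (adjusted p = 0.0964, 0.0152 and 9.34e-05, limma). Il13 was at 6.20 and 6.78 against 5.80 and 5.93 (unadjusted p = 0.174), and Il5 differed by -0.25. Gata3 differed by -0.01, with a 95% interval from -0.27 to 0.25.

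Of 26 NF-kB target and regulator genes, 0 passed the test at 0 h. Tnfaip3 (1.00) and Cxcl10 were higher and Tnf lower at an unadjusted p under 0.05. Of all genes tested, 2.79% were higher and 2.39% lower at that threshold. Cxcl10 was not above background on either control array and was above it on 1 of 2 treated arrays, so no fold is given. Nfkbia, which encodes IkBα, differed by 0.04. At 2 h, 15 of the 26 were lower in treated cells and 2 higher at an adjusted p under 0.05. Of all genes tested, 14.9% were lower and 13.6% higher. Of 16 immediate early genes, Dusp2 fell at 0 h, and Dusp1, Fos and Myc had higher levels at an unadjusted p under 0.05. Fos, a subunit of AP-1, was at 6.60 and 6.91 in control cells and 7.94 and 7.61 in treated cells. The difference was 1.02 ± 0.31 (adjusted p = 0.727, limma), and the groups did not overlap, as in 39.5% of all genes tested. Egr1 differed by -0.02, Egr2 by -0.19 and Junb by 0.07.

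Of 24 genes for FOXO factors or their targets, 0 passed the test at 0 h and the median difference was 0.01. Tsc22d3, Ctla4 (0.29) and Fbxo32 were higher at an unadjusted p under 0.05, and Txnip (-0.60) and Sesn3 lower. Of all genes tested, 2.79% were higher and 2.39% lower at that threshold. Fbxo32 was not above background in either group, and Sesn3 was above it on 1 control array and no treated array, at least 1.05-fold lower. At 6 h, 17 of the 24 were higher in treated cells and 1 lower at an adjusted p under 0.05. Of all genes tested, 18.8% were higher and 18.7% lower. Foxo1 was at 7.95 and 7.69 in control cells and 7.89 and 7.98 in treated cells, so that the groups overlapped. The FOXO targets Klf2 and Il7r were above background on 0 of the 16 arrays. Of 31 genes of the PI3K, Akt and mTOR pathway, 0 had an unadjusted p under 0.05. Their differences ran from -0.32, for Eif4ebp2, to 0.50. The entries for Akt1 and Akt2, the targets of the inhibitor, were above background on 0 of 16 arrays. Each gene has 1 entry, and mRNA levels do not show whether the kinases were inhibited.

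Of the 20 lists, the canonical histone genes had the largest median difference at 0 h, though none passed the adjusted test. Of 41 tested, 36 had a higher level in treated cells, beside 3667 of all 7395 genes. An unadjusted p under 0.05 was reached by 14 with a higher level and 0 with a lower one, beside 2.79% and 2.39% of all genes. The median of the list was 0.28 (0.25 on chip 1 and 0.20 on chip 2). That median was 0.17 without background correction, 0.18 without control replicate 1 and 0.36 without control replicate 2. In 22 of the 41 both treated arrays lay above both control arrays, beside 19.4% of all genes tested, and in 1 both lay below, beside 20.2%. The 11 H2B genes were all higher (median 0.42, from 0.36 to 0.61), and 8 of them had an unadjusted p under 0.05, beside 4 of 12 H2A genes (Hist1h2ae, Hist1h2ag, Hist1h2an and Hist2h2aa1), 2 of 10 H4 genes (Hist1h4f and Hist1h4k) and 0 of 7 H3 genes. Hist1h2bn was at 8.21 and 8.21 in control cells and 8.91 and 8.73 in treated cells (0.61 ± 0.11, adjusted p = 0.155), and Hist1h2bh at 9.12 and 9.11 against 9.70 and 9.57 (0.52 ± 0.13). Hist1h2bb, Hist1h2bc and Hist2h2be differed by 0.78, 0.90 and 0.99 on chip 1 and by -0.07, -0.06 and -0.06 on chip 2. Histone genes of a type are near-identical in sequence, so their entries may share signal and are not independent, and their mRNA is tied to S phase. At 6 h, 25 of the 41 were higher in treated cells and 0 lower at an adjusted p under 0.05. Of all genes tested, 18.8% were higher and 18.7% lower. The 25 included 3 of 11 H2B genes, against 11 of 12 H2A and 8 of 10 H4 genes.

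The remaining lists had 0 genes past the adjusted test at 0 h. Sterol synthesis (25 genes), NRF2 pathway genes (13) and heat shock genes (14) had 0 with an unadjusted p under 0.05, beside 5.18% of all genes tested. At 6 h, 19 of the 25 sterol genes were higher in treated cells and 1 lower at an adjusted p under 0.05. Of all genes tested, 18.8% were higher and 18.7% lower. Among 28 glycolysis and HIF genes, Egln1 (-0.36) was lower. Among 20 IL-2 and STAT5 pathway and target genes, Myc (0.51) was higher and Pim3 (-0.32) lower. Among 16 p53 targets Sesn3 was lower, among 24 chemokine receptor and G protein genes Cxcr6 and Gna13 (-0.37) were lower, and among 32 Myc and cell cycle genes Myc and Mxd3 (0.41) were higher. Ribosomal proteins had a median of 0.04 over 55 genes, with Rps15a (-0.59) lower, and 39 proteasome genes had a median of 0.06, with the assembly factor Psmg3 (0.25) higher. The members named here at 0 h had an unadjusted p under 0.05 (limma), which 5.18% of all genes tested reached. Gna13 (-0.68 and -0.06 on chips 1 and 2), Myc (0.15 and 0.88) and Mxd3 (0.17 and 0.65) differed mostly on 1 chip, as did Sesn3. Values of Egln1 (-0.44 and -0.27) and Pim3 (-0.32 and -0.33) were closer between chips.

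The J5 score of the study's methods, the difference of mean intensity over the mean absolute difference of all genes, was also applied at 0 h as a description with no error term. Beyond 20 in either direction it picked 111 of 18138 genes (0.612%), 107 higher (0.59%) and 4 lower (0.0221%). The 5 highest were Hist2h2ac, Ubb, LOC675813, Rpl9 and Rpl41, with log2 differences of 0.08, 0.10, 0.10, 0.04 and 0.04, and the lowest were Lrp10, Stt3b, Mcm5, Plac8 and Gpx1, the last just outside the threshold at -19.9. The 111 genes had a median intensity percentile of 99.7 and a median absolute log2 difference of 0.06, and 58 of them had the same sign on both chips, beside 27.1% of the genes tested with a higher and 27.9% with a lower level on both. Of the 4 genes called by limma, Rgs1 (39.0) was beyond the threshold, while Dusp2 (-17.65), Chac1 (13.8) and Ddit3 (4.84) were not. The direction depended on the scaling: with arrays scaled to the same mean the score picked 73 higher and 31 lower, and without scaling 16 higher and 67 lower.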

How the data were processed

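RNA from D10 cells was hybridized to Illumina MouseRefSeq8 arrays. The authors deposited 1 linear intensity per gene and array, neither normalized nor background-subtracted per the file headers, with 798 negative controls. A gene was above background where under 0.01 of these controls reached it. Values were background-corrected on the controls, quantile-normalized and log2-transformed (limma 3.58.1 neqc, offset 16, R 4.3.3). The 8 groups were fitted in 1 model over 16 arrays without covariates, since the methods name none (8 residual and 4.26 prior degrees of freedom), with Benjamini-Hochberg adjustment over 7395 genes per comparison. SE and 95% intervals come from this fit. The number of arrays limits the precision (median SE 0.152). For a group below background on both arrays of the 0 h comparison a fold is given only as a bound: the brighter mean against the higher, per array, of the dim gene and the lowest signal above background.

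Genes named are those called, the 12 higher and 12 lower with the smallest p and the same sign on both chips, list members with an unadjusted p under 0.05, the 5 highest and lowest J5 scores (95th percentile scaling, threshold 20) and defining pathway genes. Further list members and the genes beyond 1 were named after their values were seen. The members and lists were chosen with earlier results of these data known. The alternatives were other background corrections, scalings, offsets and filters, blocks, the 0 h arrays alone, an intensity trend and leaving out each array. The steps were tested on simulated data with planted log2 differences at 0 h. Of these, 13 of 67 of size 0.5, 61 of 67 of size 1 and 62 of 66 of size 2 were called. There, 8 genes with no planted difference were called too. Far more genes were called there than in the real arrays, which makes the adjusted threshold easier to pass. Of the genes, 16590 had an identifier in the gene table. Figures and counts used Python 3.11.15, numpy 2.4.6, pandas 2.3.3 and matplotlib 3.10.9.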

Additional observations from a re-analysis of the deposited data

Results flagged for a closer look

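The effect of Akti1/2 after stimulation differed from that before it at 1 or more times in each of the 4 genes called at 0 h, by limma's test of the difference itself (Benjamini-Hochberg over 7395 genes). The test uses the 0 h arrays that chose these genes. For Chac1 the effect was larger than at 0 h by 2.34, 1.11 and 1.90 on the log2 scale at 2, 6 and 12 h (adjusted p = 0.000423, 0.00911 and 0.000168). For Ddit3 it was larger by 1.57, 2.11 and 2.57 (adjusted p = 0.000223, 3.96e-06 and 6.09e-07). At 6 h the Rgs1 effect was larger by 0.81 (adjusted p = 0.00751), at 12 h it was larger by 1.42 (adjusted p = 0.000116), and the difference of 0.46 at 2 h did not pass (adjusted p = 0.13). The Dusp2 effect was more negative than at 0 h, with a difference of -0.54 after 6 h (adjusted p = 0.0406) and of -0.58 after 12 h (adjusted p = 0.0185), and -0.065 at 2 h did not pass (adjusted p = 0.839). The Dusp2 difference at 6 h did not pass without filter (adjusted p = 0.0632), after scaling to the same mean (0.0768) or the same 95th percentile (0.0835), or without control replicate 1, control replicate 2 or Akti1/2 replicate 2 (0.0976, 0.101 and 0.157). That at 12 h did not pass after scaling to the same 95th percentile (0.0751) or without the same arrays (0.0507, 0.052 and 0.0839).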

How the results depend on the processing

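Rgs1 was called under all 16 alternatives, Ddit3 and Dusp2 under 14 and Chac1 under 12, and no alternative turned the direction of any of the 4 at 0 h. The number of genes called, and with it that of called list members, was 7 without background correction, where 6 were higher (Dusp1, Hist1h2bn and Tsc22d3 were added). It was 2, with 0 lower, when the 0 h arrays were fitted alone, with or without their own normalization. The fewer residual degrees of freedom are part of these settings. With scaling to the same 95th percentile, an offset of 50, genes above background on all 16 arrays or on 2 of the 4 arrays at 0 h, or an intensity trend, 5 were higher (Dusp1 and Tsc22d3 were added). With 1 array of a 0 h group left out, the remaining one was assumed to vary as the arrays of other groups do. Then 3 to 4 genes were called, 2 to 3 higher and 1 to 2 lower, and each time Chac1 was lost. Zfp69 was added without control replicate 1 and Nope without Akti1/2 replicate 1. The effect at 2 h minus that at 0 h had 622 calls, 349 with scaling to the same 95th percentile and 186 to 303 with a 0 h array left out, that at 6 h 1445 and 916 to 1040, and that at 12 h 2400 and 1843 to 1950. The J5 score picked 53 genes, all higher, when only genes above background were used, and 80 to 120 with an array left out. Small values changed sign. Atf3, not above background at 0 h, came to 0.053 and 0.091 with scaling to the same mean and 95th percentile, and ran from -0.12 to 0.10 with an array left out. Asns came to 0.0084 with scaling to the same 95th percentile and ran from -0.074 to 0.064. With an array left out, Foxo1 ran from -0.015 to 0.25 and Rpl9 and Rpl41 each from -0.038 to 0.12. The Dusp2 effect at 2 h minus that at 0 h came to 0.069 with scaling to the same 95th percentile and ran from -0.20 to 0.073. Of 320 medians of the lists under alternatives, 49 moved by more than the spread between chips, over 14 of 20 lists, by at most 0.20. With the replicate block 5 genes were called (Dusp1 was added), as with the chip block. Deviations of same-numbered arrays correlated from -0.30 to 0.26 over 28 pairs of groups, so the numbers were not taken to pair the samples. Genes close to the negative controls have the least precise values, and 498 of the genes tested were above background on no array at 0 h.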
